A study of Mus musculus with 16 samples.

Results

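Collagens are the main structural proteins of the extracellular matrix, and the genes described here are the 43 collagen genes measured by arrays of mouse uterus RNA. A gene was a member when its array probe carried a RefSeq accession of a gene whose symbol is Col, a number, a and a number, with Col17a1 left out. These 43 genes stood among 31758 genes and unnamed targets with a probe, and were read by 74 probes. Of the 43, 11 encode fibrillar collagens, 6 encode the type IV collagens of basement membranes and 26 encode other collagens. A signal well above background on at least 4 of the 16 arrays was needed for testing, and 41 of the 43 members passed, among 25045 genes and targets tested. Col10a1 was above background on 0 arrays and Col9a1 on 2, and neither was tested. All 11 fibrillar and all 6 basement membrane genes were tested, as were 24 of the 26 others.

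A collagen molecule is a triple helix of 3 chains, each a separate gene product or a copy of one. Fibrillar collagens such as types I, III and V assemble into the fibres that bear tension in the uterine stroma and muscle wall, where type I and type III chains are the main components. Type IV collagen forms the sheet-like network of basement membranes under epithelium and endothelium and around smooth muscle cells. The other classes include the beaded filaments of type VI, the anchoring fibrils of type VII, collagens that decorate fibrils (FACIT collagens), multiplexins near basement membranes and collagens that span the cell membrane. Glucocorticoids are known to lower type I procollagen synthesis in fibroblasts of several tissues.

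The series asks whether genistein, an isoflavone of soy with estrogenic activity, given to newborn mice changes how the adult uterus responds to glucocorticoid. Genistein at 50 mg/kg was given on postnatal days 1 to 5, and all mice later lost their adrenal glands and ovaries by surgery at 6 weeks. Each mouse was injected at age 8 weeks with dexamethasone at 1 mg/kg or with saline, and the whole uterus was taken 4 h later. There were 4 groups with 4 arrays each. SalV had the neonatal control treatment and adult vehicle, SalD the neonatal control treatment and adult dexamethasone, GenV neonatal genistein and adult vehicle, and GenD neonatal genistein and adult dexamethasone. The neonatal control is named saline in the sample labels and corn oil in the design text. Since all 4 groups lacked adrenals and ovaries, the vehicle groups lacked the main sources of corticosterone and ovarian steroids. The labels do not say whether each array is 1 mouse, so each p-value reflects array-to-array spread, which may be technical. In whole-tissue RNA, fewer cells of a type and less RNA per cell cannot be told apart.

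Levels are log2 of the background-subtracted scanner signal minus the array's own 75th percentile, so a level of 0 equals that percentile and levels of different genes are not set against each other. The 75th percentile ran from 948 to 2719 signal units and the share of spots well above background from 68.9 to 81.3%. The arrays lay on 5 slides, with SalV array 3 alone on the fifth slide and scanned on another day. All 7 uterine marker genes, among them Hoxa10, Hoxa11 and the progesterone receptor gene Pgr, passed the background filter. Adipocyte marker genes varied most among the arrays. Their mean level relative to the 16-array mean ran from -4.52 to -0.42 in SalV, -1.18 to 3.06 in SalD, -0.72 to 1.00 in GenV and -2.04 to 1.49 in GenD.

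The promoters of 4 collagen genes are shown because the results turn on their genes: Col4a5 rose after dexamethasone in control mice, Col1a2 and Col3a1 fell together after dexamethasone in genistein-treated mice, and Col7a1 rose there. RefSeq promoter windows of build GRCm38.p6, running from 250 bases before to 50 bases after the annotated start, were at hand for 34 of the 43 members in 37 windows. The 9 members without one were Col12a1, Col14a1, Col1a1, Col22a1, Col26a1, Col2a1, Col4a3, Col5a2 and Col9a3. The 250 bases before the start are printed 5′ to 3′ on the gene's strand, which is the plus strand for all 4. Capitals mark a match, on either strand, to the GC box GGGCGG, the CCAAT box CCAAT, the TATA box TATAAA, the AP-1 site TGANTCA or the glucocorticoid receptor half-site AGAACA.
Col1a2, chr6:4505368-4505617: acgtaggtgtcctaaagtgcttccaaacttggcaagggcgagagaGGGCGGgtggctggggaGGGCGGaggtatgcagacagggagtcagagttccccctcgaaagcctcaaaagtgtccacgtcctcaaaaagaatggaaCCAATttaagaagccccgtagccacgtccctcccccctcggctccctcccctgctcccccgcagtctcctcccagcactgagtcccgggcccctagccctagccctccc
Col3a1, chr1:45311288-45311537: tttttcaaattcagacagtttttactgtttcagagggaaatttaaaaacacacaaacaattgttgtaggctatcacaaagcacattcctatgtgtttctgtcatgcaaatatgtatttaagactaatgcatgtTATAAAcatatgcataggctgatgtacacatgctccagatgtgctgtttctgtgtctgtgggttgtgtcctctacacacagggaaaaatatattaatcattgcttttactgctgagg
Col7a1, chr9:108953336-108953585: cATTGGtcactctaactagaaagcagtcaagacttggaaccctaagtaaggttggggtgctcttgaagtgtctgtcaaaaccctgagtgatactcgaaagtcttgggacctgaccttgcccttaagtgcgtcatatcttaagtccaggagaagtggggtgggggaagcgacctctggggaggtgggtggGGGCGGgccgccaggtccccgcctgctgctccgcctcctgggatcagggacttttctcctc
Col4a5, chrX:141475169-141475418: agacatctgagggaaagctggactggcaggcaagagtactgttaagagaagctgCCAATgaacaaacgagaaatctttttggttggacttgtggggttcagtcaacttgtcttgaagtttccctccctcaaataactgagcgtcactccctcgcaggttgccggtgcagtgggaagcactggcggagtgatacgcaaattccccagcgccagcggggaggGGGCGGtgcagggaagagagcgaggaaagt

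The GC box GGGCGG was found in 23 of the 37 collagen windows (62.2%) and in 35.7% of all 32851 windows of the same length. In the sequences above it lies 205 and 188 bases before the start of Col1a2, 61 bases before that of Col7a1 and 30 bases before that of Col4a5. The CCAAT box was present in 12 collagen windows (32.4%, against 37.4% of all windows) and the TATA box in 4 (10.8% against 13.6%). Col3a1 differs from the other 3 in that its TATAAA, 117 bases before the start, is its only match. The glucocorticoid receptor half-site was in 2 collagen windows (5.41% against 19.0%), those of Col9a1 and Col20a1. The full palindromic glucocorticoid receptor element, which holds the half-site on both strands with 3 bases between, was in 0 of the 37 and in 3 of all windows (0.00913%). The AP-1 site was in 1 collagen window (2.7% against 7.81%). The starts of Col4a1 and Col4a2, which are transcribed in opposite directions, lie 21 bases apart on chromosome 8.

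Dexamethasone in mice without genistein left most collagen genes within the spread of the arrays, and the members that changed came from several classes. In SalD compared with SalV, Col4a5 and Col14a1 rose, and Col6a2, Col6a4, Col26a1 and the fibrillar Col27a1 fell, by 1.53-fold to 2.68-fold. Thus 6 of 41 collagens (14.6%) passed an adjusted p below 0.05, where 23% of all 25045 genes did, so the share of collagens called lay below that of genes at large. By direction, 2 collagens were higher (8.61% of all genes) and 4 lower (14.4% of all genes). The median log2 fold change was -0.16 over the collagens and -0.16 over all genes. The groups did not overlap for 9 collagens, against 28.5% of all genes.

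**Figure D1:**
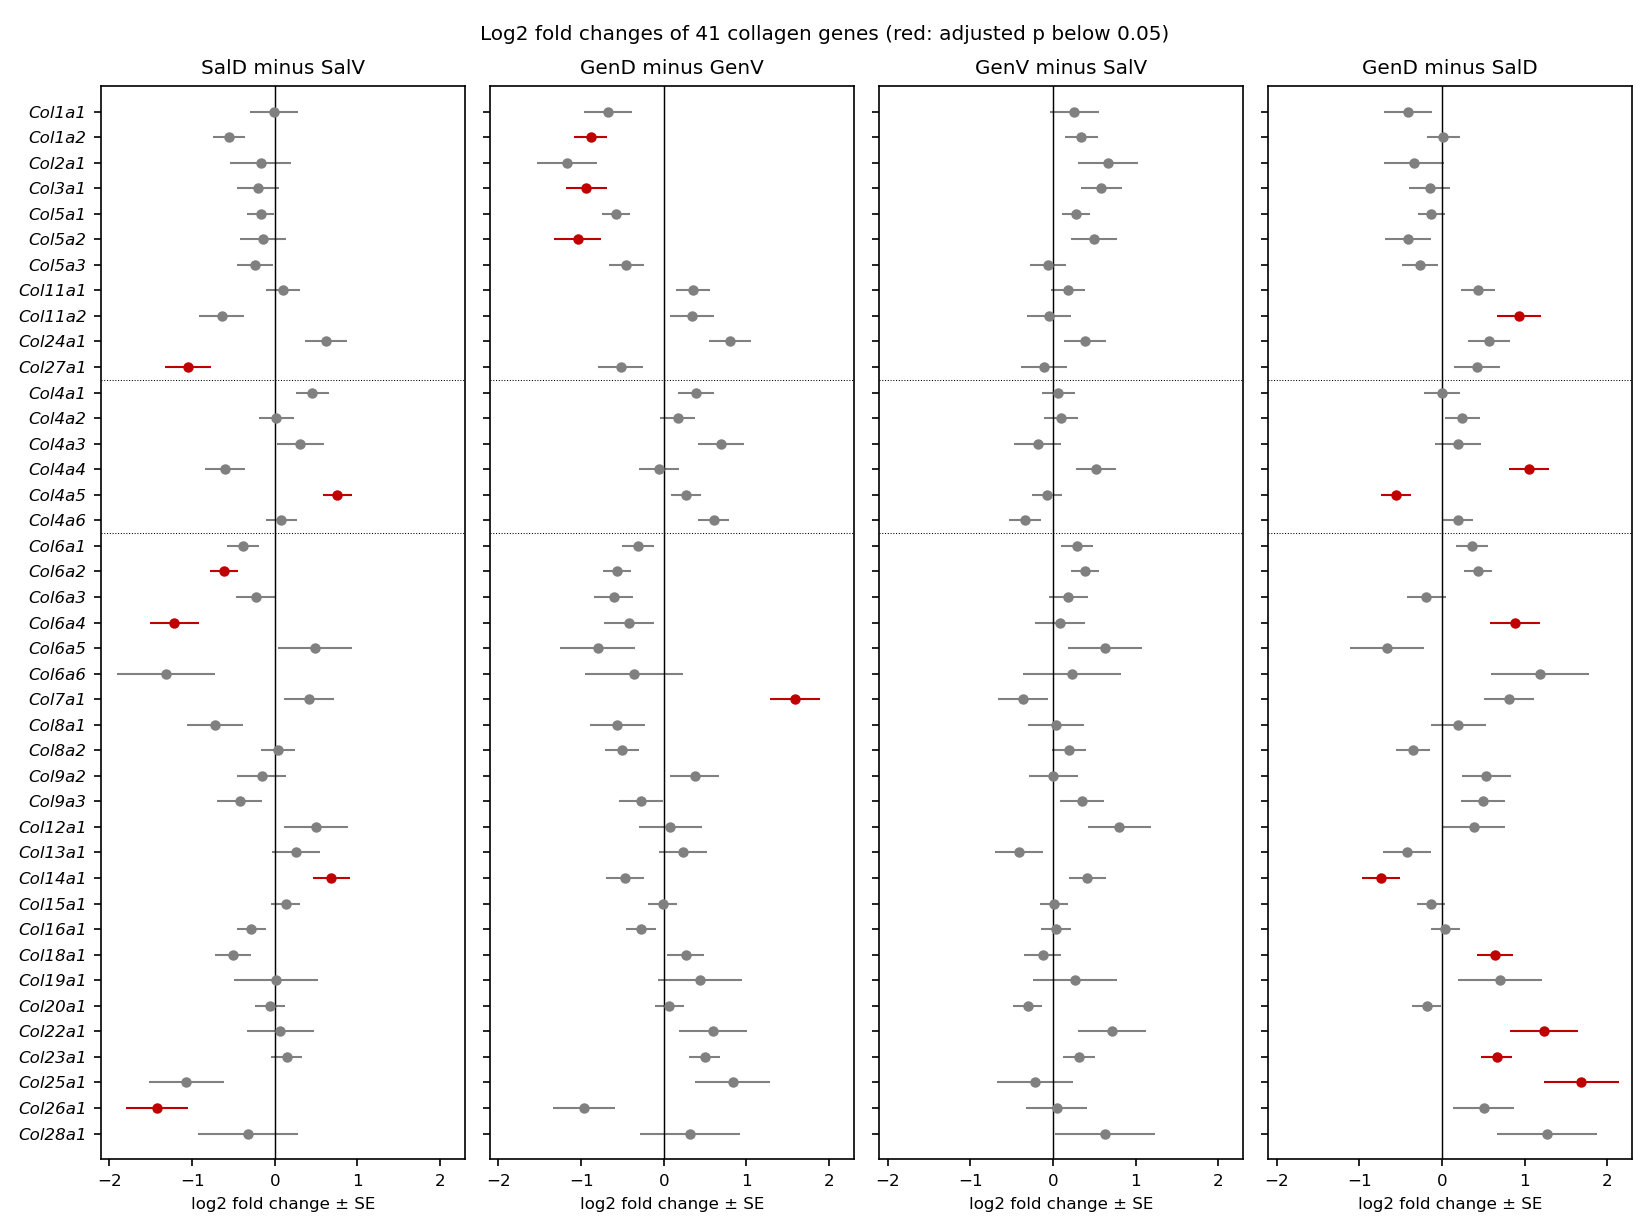
Log2 fold change with its standard error (horizontal axis) for each of the 41 collagen genes tested, in 4 comparisons of 4 against 4 arrays, with fibrillar genes at the top, basement membrane genes in the middle and other collagens below, and genes with an adjusted p below 0.05 in red. Red points number 6 in SalD minus SalV, 4 in GenD minus GenV, 0 in GenV minus SalV and 9 in GenD minus SalD.

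Among fibrillar collagens, 1 of 11 was called in SalD against SalV. Col27a1, a fibrillar collagen best known from cartilage, read -0.80, -1.35, -1.34 and -1.49 on SalV arrays 1 to 4 and -2.04, -1.76, -2.64 and -2.74 on SalD arrays 1 to 4. Every SalD array lay below every SalV array. The fall was 1.05 on the log2 scale (SE 0.28, limma adjusted p = 0.0166), and a dimmer probe of the gene gave -1.42. Within slides 1, 3 and 4, the slides that held both groups, it differed by -1.45, -0.69 and -1.15. The call was lost without SalV array 1 or without SalD array 4. Of 4 cartilage markers tested 1, Acan, was lower in SalD (-1.17, limma adjusted p = 0.049), where 14.4% of all genes were lower. The list split into 2 positive and 2 negative differences (median -0.12), with Hapln1 at 0.76 and not called. The part of cartilage markers in the difference was not tested.

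The type I and type III chains, the main fibre-forming chains of the uterus, were not called in this comparison. Col1a2, the α2 chain of type I collagen, read 5.62, 5.47, 5.49 and 5.27 in SalV and 4.55, 4.90, 5.29 and 4.90 in SalD. SalD array 3 just overlapped the lowest SalV array, and the difference was -0.55 (SE 0.20, limma adjusted p = 0.0583). It was called in 5 of 32 alternatives, with a limma adjusted p down to 0.0338. Col1a1, the α1 chain, read 4.41, 5.00, 4.19 and 4.58 in SalV and 4.03, 4.13, 5.06 and 4.92 in SalD. Its SalD arrays split into a low pair and a high pair, the SalV arrays lay between them apart from array 2, and the difference was -0.01 (SE 0.29). The sign of the Col1a1 difference turned under several alternatives, and 2 dimmer Col1a1 probes gave -0.56 and -0.61, neither called at an unadjusted p of 0.05. Col3a1, the single chain of type III collagen, read 5.00, 4.99, 4.69 and 4.69 in SalV and 4.19, 4.39, 5.28 and 4.71 in SalD. The groups overlapped, with SalD array 3 above all SalV arrays and the difference at -0.20 (SE 0.25), or 0.02 when arrays were scaled to their medians. A dimmer Col3a1 probe gave -0.93 with an unadjusted limma p of 0.0012, so the probes of Col3a1 differ in this comparison.

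**Figure D2:**
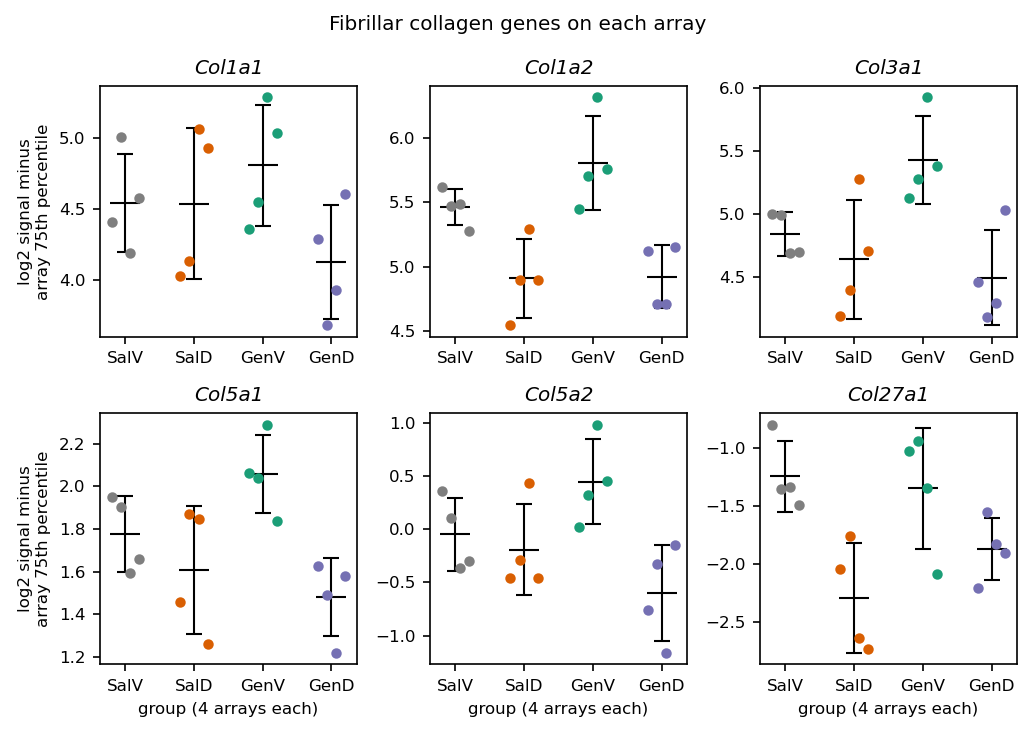
Log2 level relative to the array's 75th percentile (vertical axis) of 6 fibrillar collagen genes on each of the 16 arrays, by group, with bars for the mean and SD of 4 arrays. GenV points lie above GenD points without overlap for Col1a2, Col3a1, Col5a1 and Col5a2, while SalV and SalD separate without overlap for Col27a1 alone of these 6.

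Of the 6 basement membrane genes, 1 was called in SalD against SalV. Col4a5, an X-linked chain of type IV collagen, read -1.65, -1.19, -2.15 and -1.24 in SalV and -0.73, -0.80, -0.73 and -0.95 in SalD. All SalD arrays lay above all SalV arrays, with a spread of 0.10 (SD, n = 4) in SalD and 0.45 in SalV. The rise was 0.76 (SE 0.18, limma adjusted p = 0.00964), and it was 0.78, 0.46 and 0.50 within slides 1, 3 and 4. Col4a1 and Col4a2 encode the chains found in nearly all basement membranes. Col4a1 read 1.63, 1.37, 1.37 and 1.02 in SalV and 1.96, 1.65, 1.86 and 1.73 in SalD, without overlap, but its difference of 0.46 (SE 0.20) did not pass the test (limma adjusted p = 0.112). A dimmer Col4a1 probe gave -0.33, the opposite sign. Col4a2 read 1.87, 1.39, 1.21 and 1.26 in SalV and 1.52, 1.47, 1.46 and 1.36 in SalD. These groups overlapped and differed by 0.02 (SE 0.21), a difference whose sign turned with the scaling, as listed among the processing alternatives.

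**Figure D3:**
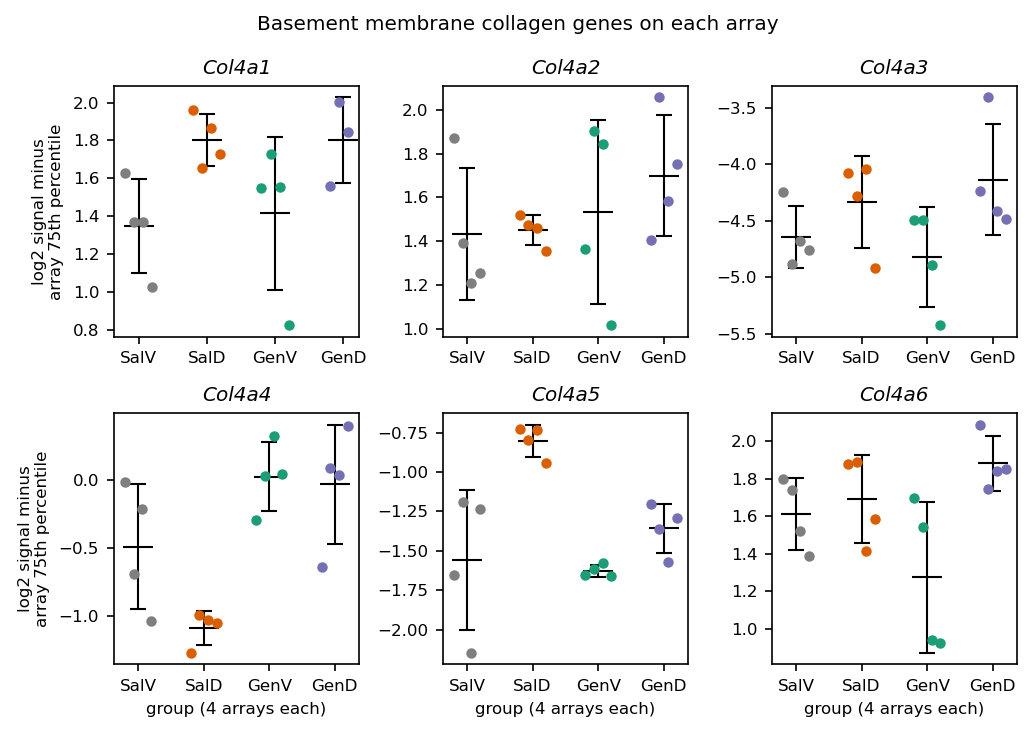
Log2 level relative to the array's 75th percentile (vertical axis) of the 6 type IV collagen genes on each array, by group, with bars for mean and SD (4 arrays a group, 3 for Col4a1 in GenD). The SalD mean is the lowest of the 4 groups for Col4a4 and the highest for Col4a5, and the SalD arrays lie apart from the GenD arrays for both genes.

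Type VI collagen, which forms beaded filaments between cells and the interstitial matrix, had 2 of its 6 genes lower in SalD. Its median log2 fold change was -0.50, where 14.4% of all genes were lower and their median was -0.16. Col6a2, which encodes an obligate chain of the classical type VI molecule, read 1.26, 1.03, 1.10 and 0.87 in SalV and 0.27, 0.26, 0.56 and 0.69 in SalD. The groups did not overlap. The fall was 0.62 (SE 0.17, limma adjusted p = 0.0185), with -0.78, -0.76 and -0.30 within slides 1, 3 and 4. The call was lost without SalV array 1, without SalD array 1, or under median scaling. Col6a4, a further type VI chain, read 3.74, 3.30, 3.58 and 3.09 in SalV and 2.85, 2.47, 2.07 and 1.46 in SalD, again without overlap. It fell by 1.21 (SE 0.30, limma adjusted p = 0.0119). Within slides 1, 3 and 4 it differed by -1.78, -0.45 and -1.02, and a dimmer probe gave -1.99. With slide as a fixed block, its only alternative without a call, the limma adjusted p was 0.061. The other 2 chains of the classical molecule, Col6a1 at -0.39 (SE 0.19) and Col6a3, were not called.

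Col26a1 showed the largest fall of the 41 in SalD. This little-studied collagen, first described in testis and ovary, read -1.54, -1.75, -1.34 and -1.25 in SalV and -3.35, -3.54, -3.15 and -1.53 in SalD. Arrays 1 to 3 of SalD were far below SalV, while SalD array 4 lay within the SalV range. The fall was 1.42 (SE 0.37, limma adjusted p = 0.0161), and within slides 1, 3 and 4 the difference was -0.99, -1.60 and -1.90. Col14a1, a FACIT collagen on the surface of fibrils, read 1.39, 1.57, 0.85 and 1.13 in SalV and 1.45, 1.93, 2.46 and 1.83 in SalD. Only the lowest SalD array overlapped SalV. The rise was 0.68 (SE 0.23, limma adjusted p = 0.0433), the difference was 0.49, -0.11 and 1.33 within slides 1, 3 and 4, and 15 of 32 alternatives lost the call, among them the omission of SalV array 1, 3 or 4, SalD array 2, 3 or 4, GenV array 1, or GenD array 1 or 3.

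**Figure D4:**
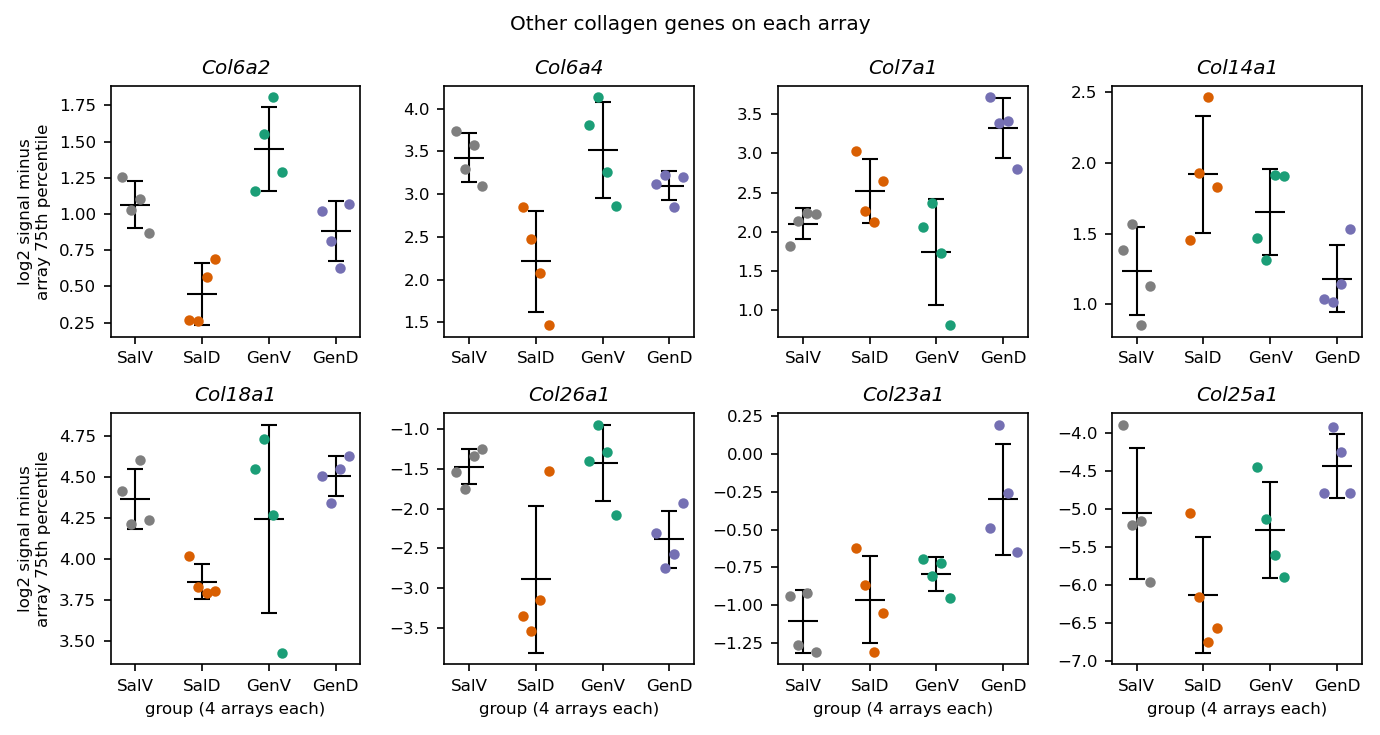
Log2 level relative to the array's 75th percentile (vertical axis) of 8 collagen genes outside the fibrillar and basement membrane classes, on each array by group, with bars for mean and SD of 4 arrays. Col6a2 and Col6a4 are low on all 4 SalD arrays, and Col7a1 is highest in GenD, where it runs from 2.80 to 3.72.

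Markers of several cell types were called in SalD against SalV, where 8.61% of all genes were higher and 14.4% lower (median -0.16). Of 7 adipocyte markers 6 were called higher in SalD (median log2 fold change 3.87), and their mean relative level was highest on SalD arrays 2 and 3, at 2.89 and 3.06. Of 7 smooth muscle markers 2 were lower (median -0.90), with mean relative levels of 0.25 to 0.62 in SalV and -0.86 to 0.13 in SalD. Stromal fibroblast markers had 2 of 7 lower (median -0.44, 0.09 to 0.43 in SalV against -0.30 to -0.09 in SalD) and endothelial markers 3 of 7 lower. Calls went both ways among macrophage markers (1 of 6 higher, 1 lower) and mesothelial markers (1 of 5 higher, 1 lower). Uterine markers had 2 of 7 higher, Hoxa11 and Emx2, with a median of 0.05 over the list. Hoxd10 differed by -0.70 without overlap and was not called. Of 7 uterine epithelial markers 0 were called. The part of these markers in the collagen differences was not tested. Without SalD arrays 2 and 3, 2 collagens stayed called, Col27a1 and Col6a4, and without SalV array 1, 3 did. With slide as a fixed block 5 were called, without Col6a4 and Col14a1 and with Col11a2 added. When arrays were scaled to their medians, 7 collagens were called, 4 higher and 3 lower, and the median of all genes moved from -0.16 to 0.07, so directions are relative to that shift.

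**Figure D5:**
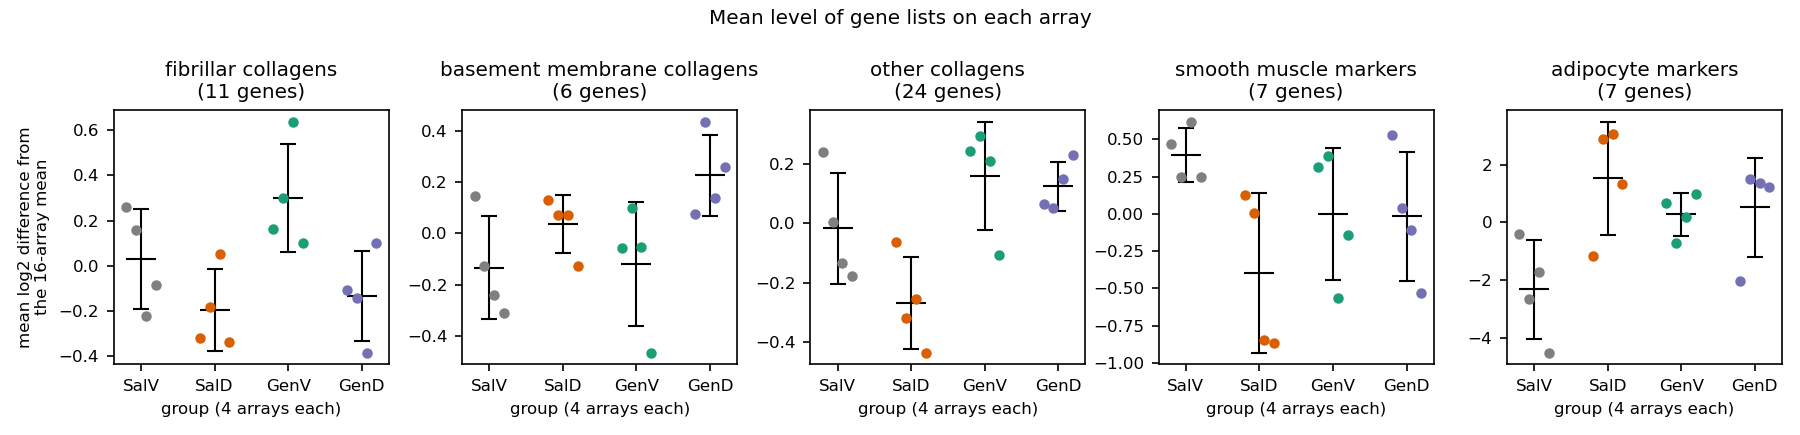
Mean log2 difference of each array from the 16-array mean (vertical axis) over the genes tested of 3 collagen classes and 2 marker lists, by group, with bars for mean and SD of 4 arrays and a separate vertical scale in each panel. The fibrillar collagens lie between 0.10 and 0.64 in GenV and between -0.38 and 0.10 in GenD, and the adipocyte panel spans the widest range.

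Dexamethasone after neonatal genistein was followed by less RNA of 3 fibrillar chains, 1 each of types I, III and V, and by more RNA of type VII collagen. In GenD compared with GenV, Col1a2, Col3a1 and Col5a2 fell 1.84-fold, 1.91-fold and 2.06-fold, and Col7a1 rose 3.01-fold. These 4 of 41 collagens (9.76%) compare with 5.31% of all genes called, and 13 of 41 did not overlap between groups, against 12.4% of all genes. By direction, 1 collagen was higher (2.52% of all genes) and 3 were lower (2.8% of all genes). Under median scaling 2 collagens were called, Col7a1 and Col4a6, both higher and none lower, so the calls of Col1a2, Col3a1 and Col5a2 were all lost there. All 3 that fell were fibrillar, so 3 of the 11 fibrillar genes were lower. The median log2 fold change was -0.58 over the fibrillar genes, -0.06 over the 41 collagens and -0.02 over all genes.

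Col1a2 read 5.45, 5.71, 6.31 and 5.76 on GenV arrays 1 to 4 and 5.12, 4.71, 4.71 and 5.15 on GenD arrays 1 to 4. Each GenD array was below each GenV array, with GenV array 3 the highest of all. The fall was 0.88 (SE 0.20, limma adjusted p = 0.0191), and within slides 2, 3 and 4 the difference was -0.53, -1.04 and -0.55. Its call was lost without GenD array 2 or array 3. Col3a1 read 5.13, 5.28, 5.93 and 5.38 in GenV and 4.46, 4.18, 4.29 and 5.03 in GenD. GenD array 4 came closest to the GenV arrays, without overlapping them. Col3a1 fell by 0.94 (SE 0.25, limma adjusted p = 0.0439), its dimmer probe gave -1.10, and within slides 2, 3 and 4 it differed by -0.75, -1.20 and -0.24. Leaving out any array other than SalD arrays 1 and 3 and GenD array 4 ended the call of Col3a1.

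Col5a2, a chain of the type V collagen that nucleates type I fibrils, read 0.02, 0.32, 0.98 and 0.45 in GenV and -0.76, -0.32, -1.16 and -0.15 in GenD. The groups lay apart, again with GenV array 3 highest. It fell by 1.04 (SE 0.28, limma adjusted p = 0.0441), with -0.98, -0.78 and -0.47 within slides 2, 3 and 4. As for Col3a1, 19 of 32 alternatives lost its call, among them the omission of any of SalV arrays 2 to 4, SalD arrays 1, 2 and 4, GenV arrays 2 to 4 and GenD arrays 1 to 3. Its partner chain Col5a1 also lay apart, at 2.06 ± 0.18 in GenV and 1.48 ± 0.18 in GenD (SD, n = 4 each), but its difference of -0.58 had a limma adjusted p of 0.0579. Col1a1 read 4.36, 4.55, 5.28 and 5.03 in GenV and 4.29, 3.68, 3.93 and 4.60 in GenD. Its groups overlapped, and the difference of -0.68 (SE 0.29) was not called (limma adjusted p = 0.231), while the 2 dimmer probes gave -0.86 and -0.75. Col2a1, the main collagen of cartilage, differed by -1.17 with a limma adjusted p of 0.0838. Fibrillar genes also ran the other way, as Col24a1 differed by 0.80 (limma adjusted p = 0.0917) without overlap.

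Col7a1, the anchoring fibril collagen that fastens epithelial basement membrane to the stroma, read 2.06, 2.37, 1.73 and 0.80 in GenV and 3.72, 3.38, 3.41 and 2.80 in GenD. The groups did not overlap, and GenV array 4 was the lowest of all 16 arrays. The rise was 1.59 (SE 0.30, limma adjusted p = 0.00747), and within slides 2, 3 and 4 it was 1.5, 2.58 and 0.43. In SalD against SalV the same gene differed by 0.42 (SE 0.30), from 1.82, 2.13, 2.24 and 2.22 in SalV to 3.04, 2.27, 2.12 and 2.65 in SalD, which overlapped.

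No basement membrane or type VI gene was called in GenD against GenV. Over all genes 48.2% of the differences were positive (median -0.02) and 12.4% of genes did not overlap between groups. Of the 6 type IV genes 5 had positive differences (median 0.33) and 3 did not overlap. Col4a1 read 1.55, 1.73, 1.56 and 0.82 in GenV and 1.56, 2.00 and 1.85 on GenD arrays 1 to 3, since its spot on GenD array 4 carried an outlier flag. It differed by 0.39 (SE 0.21), and the dimmer probe by 0.06. Col4a2 read 1.37, 1.90, 1.84 and 1.02 in GenV and 1.41, 2.06, 1.58 and 1.75 in GenD, overlapping, with a difference of 0.17 (SE 0.21). Col4a6 and Col4a3 differed by 0.60 and 0.69 without overlap (limma adjusted p = 0.0860 and 0.202). All 6 type VI genes had negative differences (median -0.49), Col6a2 among them at -0.57 (limma adjusted p = 0.0671).

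The number of collagens called after genistein depended on the arrays and the model. It was 2 without any 1 of SalV arrays 2, 3 and 4, SalD array 2, GenV arrays 2, 3 and 4 and GenD array 1, and 1 without GenD array 2 or without GenD array 3. With slide as a fixed block, or with the GenV and GenD arrays fitted alone, 0 collagens were called, and with array weights 14 were. In GenD against GenV 2.52% of all genes were higher and 2.8% lower. Of 7 smooth muscle markers and 7 adipocyte markers, 0 were called there, and 1 of 7 stromal fibroblast markers, Lum, was lower (-0.97). The fibroblast list had a median of -0.06 and 3 of 7 positive differences, among them Pdgfra at 0.56 (not called). Of 6 macrophage markers 1 was lower, Ptprc (-0.73, SE 0.12), with a median of -0.65 over the list and mean relative levels of -0.16 to 0.68 in GenV and -0.55 to 0.05 in GenD. Of 5 mesothelial markers 1 was lower, Lrrn4 (-2.27, SE 0.30), with a median of -0.23 over the list. Upk1b went the other way by 0.90 without overlap and was not called. Mean relative levels of the mesothelial list ran from -0.27 to 0.42 in GenV and -0.51 to -0.16 in GenD. Of 7 uterine markers 2 were higher in GenD, Hoxa10 and Hoxa11, by 1.36 and 1.46. The median over that list was 0.13, and 2 of the 7 differences were negative, among them Esr1 at -0.78 (not called). None of the 7 endothelial, 7 uterine epithelial or 4 cartilage markers was called, and the part of these markers in the collagen differences was not tested.

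The question the series title asks is the difference between both dexamethasone effects, GenD minus GenV less SalD minus SalV. No collagen was called for it by limma (0% of all 25045 genes were), while 6 of the 41 collagens had an unadjusted p under 0.05 (15.5% of all genes), 4 positive and 2 negative. Col14a1 had the smallest p, with an interaction of -1.16 (SE 0.32, limma adjusted p = 0.181). Its dexamethasone difference was 0.68 without genistein and -0.47 after it. Col25a1 followed at 1.90 (SE 0.64, limma adjusted p = 0.218), and Col7a1 at 1.17 (SE 0.43, limma adjusted p = 0.239). For the fibrillar genes called after genistein, the interaction was -0.33 (SE 0.28) for Col1a2, -0.73 (SE 0.35) for Col3a1 and -0.90 (SE 0.39) for Col5a2. Calls in GenD against GenV and their lack in SalD against SalV therefore do not show that the effects differ. The count of 0 was the same under every alternative that could give a value for the interaction.

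Neonatal genistein alone moved no collagen past the test. In GenV against SalV 0 of 41 collagens were called by limma (0.00399% of all genes), and 2 had an unadjusted p under 0.05 (13.8% of all genes), both higher in GenV. Those were Col3a1, at 0.58 (SE 0.25, limma adjusted p = 0.352), and Col6a2, at 0.39 (SE 0.17, limma adjusted p = 0.355). For Col3a1 the GenV arrays, from 5.13 to 5.93, all lay above the SalV arrays, from 4.69 to 5.00. Col12a1, a FACIT collagen of tendons and other tensile tissue, was the other gene without overlap (0.81, limma adjusted p = 0.365). The 2 genes without overlap compare with 4.82% of all genes. The difference was positive for 30 of 41 collagens and for 55.6% of all genes, with medians of 0.19 and 0.05. Adipocyte markers had positive differences for 7 of 7 (median 2.83), 6 of them with an unadjusted limma p under 0.05. Macrophage markers had positive ones for 6 of 6. Smooth muscle, stromal fibroblast and endothelial markers each had negative ones for 7 of 7. None of these markers was called, and their part in the collagen differences was not tested. GenV against SalV and GenD against GenV share the GenV arrays, so a GenV level that stands apart enters both with opposite sign.

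Under dexamethasone, the genistein group carried more RNA of several collagens outside types I and III. In GenD compared with SalD, Col4a4, Col11a2, Col18a1, Col6a4, Col22a1, Col23a1 and Col25a1 were higher, by 1.56-fold to 3.22-fold, and Col4a5 and Col14a1 were lower. These 9 of 41 (22.0%) stand beside 22.8% of all genes called, so the share is that of genes at large. By direction 7 were higher (16.4% of all genes) and 2 lower (6.47% of all genes), and 8 of 41 did not overlap (28.7% of all genes). The median was 0.25 over collagens and 0.11 over all genes. This comparison shares the SalD arrays with SalD against SalV, so a SalD level that stands apart enters both with opposite sign.

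Col4a4, a type IV chain of specialised basement membranes, read -1.27, -0.99, -1.03 and -1.06 on SalD arrays 1 to 4 and -0.64, 0.09, 0.04 and 0.40 on GenD arrays 1 to 4. All GenD arrays were higher. The difference was 1.06 (SE 0.24, limma adjusted p = 0.0105), with 1.36 and 1.43 within slides 3 and 4. It kept its call under each of 32 alternatives. SalV, with -0.02, -0.69, -0.22 and -1.04, and GenV, with -0.30, 0.03, 0.32 and 0.04, were not called apart from each other. Col4a5 went the other way, reading -1.20, -1.36, -1.57 and -1.29 in GenD, below every SalD array given above. Its difference was -0.56 (SE 0.18, limma adjusted p = 0.0392), with -0.64 and -0.56 within slides 3 and 4, and it was not called without any 1 of the 4 SalD arrays or of GenD arrays 2 to 4. Col4a1 and Col4a2 were not called, and Col4a2 differed by 0.25 (SE 0.21).

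Among the fibrillar genes only Col11a2, a chain of cartilage fibrils, was called in GenD against SalD. It read -3.41, -3.04, -3.41 and -3.29 in SalD and -1.54, -2.94, -2.63 and -2.30 in GenD, and the groups did not overlap. The difference was 0.94 (SE 0.27, limma adjusted p = 0.0255), and 0.47 and 1.12 within slides 3 and 4. Its call was lost without SalD array 1, 3 or 4 or GenD array 1 or 4. Of 4 cartilage markers tested, 1 was higher, where 16.4% of all genes were. Their differences were positive for 3 and negative for 1 (median 0.36), and their part in the difference was not tested. Col1a1, Col1a2 and Col3a1 differed by -0.41, 0.01 and -0.15 and were not called. Among 22 members with more than 1 kept probe, 10 had a dimmer probe of opposite sign in GenD against SalD. For 4 of them that probe had an unadjusted limma p below 0.05, and these were Col24a1, Col2a1, Col5a1 and Col5a3. Opposite signs occurred for 8 members in SalD against SalV, 6 in GenD against GenV and 10 in GenV against SalV. They occurred for 8 in the interaction, 2 of them with an unadjusted limma p below 0.05.

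Col25a1, a transmembrane collagen first found in amyloid plaques, read -5.05, -6.16, -6.75 and -6.56 in SalD and -4.79, -3.93, -4.25 and -4.79 in GenD. The groups lay apart, with SalD array 1 close to GenD. It was higher by 1.69 (SE 0.45, limma adjusted p = 0.0198), while another probe gave 0.26. Col23a1, also a transmembrane collagen, read -0.62, -0.87, -1.31 and -1.05 in SalD and -0.49, 0.20, -0.26 and -0.64 in GenD. Only GenD array 4 overlapped SalD, and the difference was 0.66 (SE 0.19, limma adjusted p = 0.0252). Both calls were lost without SalD array 3 or 4 or GenD array 2 or 3. Col22a1, a FACIT collagen of tissue junctions such as that of muscle and tendon, read -2.56, -3.18, -2.99 and -2.44 in SalD and -1.14, -2.11, -1.75 and -1.21 in GenD. It was higher on every GenD array, by 1.24 on average (SE 0.41, limma adjusted p = 0.0428).

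Col18a1, the multiplexin whose end fragment is endostatin, read 4.02, 3.83, 3.79 and 3.81 in SalD and 4.51, 4.34, 4.55 and 4.63 in GenD. The groups lay apart, and the difference was 0.64 (SE 0.22, limma adjusted p = 0.0487). Col6a4 read 3.12, 3.22, 2.85 and 3.20 in GenD against the SalD values above, of which array 1 reached the lowest GenD array. It was higher by 0.88 (SE 0.30, limma adjusted p = 0.0474), and its dimmer probe gave 1.35. Col14a1 read 1.04, 1.02, 1.14 and 1.53 in GenD, and GenD array 4 overlapped the SalD values above. It was lower by 0.74 (SE 0.23, limma adjusted p = 0.0338), a call lost without SalD array 2, 3 or 4 or GenD array 1, 2 or 3. The calls of Col18a1, Col6a4 and Col22a1 were lost in 22, 20 and 16 of 32 alternatives. Single arrays whose omission kept the call were GenV arrays 2 and 4 for Col18a1, those and SalD array 1 for Col6a4, and SalV arrays 1 and 3, GenV arrays 3 and 4 and GenD array 2 for Col22a1. All 9 genes called kept their direction within slides 3 and 4. With slide as a fixed block 8 collagens were called, without Col6a4, Col14a1, Col18a1 and Col25a1 and with Col6a1, Col6a2 and Col9a2 added.

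Leaving out SalD array 3 left 1 collagen called in GenD against SalD, leaving out SalD array 4 or GenD array 3 left 2, and leaving out SalD array 2, GenD array 1 or GenD array 2 left 4. Without GenD array 4 there were 5, and without SalD arrays 2 and 3 together 1, Col4a4. Under median scaling 5 were called, 3 higher and 2 lower, and the median of all genes moved from 0.11 to -0.0031. Positive differences made up 57.4% over all genes. Adipocyte markers had negative differences for 7 of 7, none called, and smooth muscle markers positive ones for 7 of 7, none called. Endothelial markers had 1 of 7 higher, and 1 of 6 macrophage, 1 of 5 mesothelial and 1 of 7 uterine markers were lower. Each of these last lists held differences of both signs. Over all genes 16.4% were higher and 6.47% lower. Of 7 stromal fibroblast and 7 uterine epithelial markers 0 were called. The part of the marker genes in these collagen differences was not tested.

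The genes that make, cross-link, bind and cut collagen were read from 6 lists of 53 genes, of which 48 were tested. In SalD against SalV, 7 were higher and 14 lower, in GenD against GenV 1 higher and 9 lower, in GenV against SalV 0, and in GenD against SalD 8 higher and 2 lower. The share called was 43.8%, 20.8%, 0.0% and 20.8%, beside 23%, 5.31%, 0.00399% and 22.8% of all genes.

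Among 13 genes tested for prolyl and lysyl modification, which stabilises the helix and prepares cross-links, P4ha2, a catalytic subunit of prolyl 4-hydroxylase, rose with dexamethasone in both arms. Its log2 fold change was 1.72 (SE 0.21) in SalD against SalV and 1.27 (SE 0.21) in GenD against GenV. Its sister subunit P4ha1 fell in SalD by 0.66 (SE 0.12) on its brightest probe, but by 0.0056 when its probes were averaged (limma adjusted p = 0.979). Also lower in SalD were the lysyl hydroxylases Plod1 (-0.55) and Plod3 (-0.58). P4ha1, Plod1 and Plod3 were higher in GenD than SalD, by 0.64, 0.61 and 0.52, and so was the galactosyltransferase Colgalt1, by 0.50. For P4ha1 that difference was 0.023 with its probes averaged (limma adjusted p = 0.909). P4ha2 kept both calls in all 32 alternatives, and Plod1 and Plod3 lost theirs in 9 and 2 for SalD against SalV and in 5 and 6 for GenD against SalD. Of the 9 chaperone and export genes, 4 rose in SalD, where 8.61% of all genes did. These were Mia2 (1.28), Tmem39a (0.92), the COPII coat gene Sec23a (0.53) and Fkbp14. Differences were positive for 5 of the 9 and negative for 4. Mia2 was at 0.41 and not called when probes with a missing value were dropped. Fkbp14, Tmem39a and Sec23a lost their calls in 20, 8 and 6 of 32 alternatives. In GenD against SalD, Mia2 and Sec23a were lower and Fkbp10 was higher, where 6.47% of all genes were lower and 16.4% higher. Serpinh1, the collagen-specific chaperone HSP47, was not called in any comparison and differed by -0.01 in SalD and -0.40 in GenD from their vehicle groups.

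Propeptides are cut off procollagen outside the cell before fibrils form. Of 6 genes tested for this step, Bmp1, the C-proteinase, fell by 0.52 and its enhancer Pcolce by 0.68 in SalD, Adamts14 fell by 1.92 and Pcolce2 rose by 1.45. Adamts14 was called in all 32 alternatives, while Pcolce2 lost its call in 17 (limma adjusted p up to 0.289), Bmp1 in 10 and Pcolce in 7. Pcolce also fell in GenD against GenV, by 0.78 (SE 0.19), a call lost in 11 alternatives. For the 5 lysyl oxidases, which form cross-links, Loxl2 fell by 0.70 in SalD and Loxl1 fell by 1.21 in GenD against GenV, with calls lost in 10 and 3 alternatives, whereas Lox differed by 0.40 and 0.36 and was not called.

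Of 8 collagen receptors tested, 5 were lower in SalD against SalV with 3 not called, beside 14.4% of all genes lower. In GenD against GenV 4 were lower with 4 not called, beside 2.8% of all genes lower. None of the receptors was called higher, and their largest positive difference in SalD against SalV was 0.35. Ddr2, a receptor tyrosine kinase for fibrillar collagen, fell by 1.08 (SE 0.20) and by 0.99 (SE 0.20), and Mrc2, which takes up collagen for breakdown, by 1.00 (SE 0.20) and 0.85 (SE 0.20). The immune inhibitory receptor Lair1 fell by 1.28 and 1.18, and its second call was lost in 22 of 32 alternatives, with normexp at -0.69 (adjusted p = 0.246 by limma). Ddr2 kept its call in SalD against SalV in all 32 alternatives and lost it in 2 in GenD against GenV, and Mrc2 lost it in 0 and 8. No receptor was called in GenD against SalD. Among 7 collagen-cleaving proteases, the gelatinase gene Mmp2 fell by 1.14 (SE 0.22) in SalD and by 0.88 (SE 0.22) in GenD, each against vehicle. Mmp9 fell by 0.94 and 1.14. In SalD against SalV these 2 were lower and 1, Mmp8, was higher, beside 14.4% and 8.61% of all genes. The Mmp8 call was lost in 10 of 31 alternatives, and its sign turned with normexp (-0.75). In GenD against GenV 3 were lower and 0 higher, beside 2.8% and 2.52% of all genes. Fap, a fibroblast surface protease, fell by 0.66 in GenD against GenV. In GenD against GenV the calls of Mmp2, Mmp9 and Fap were lost in 11, 9 and 9 alternatives. With normexp, Mmp9 was at -0.35 and Fap at -0.30 there.

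Across members the SD within a group had a median of 0.32 on the log2 scale and ran from 0.04 for Col4a5 in GenV to 1.46 for Col28a1 in SalD. Col19a1, Col28a1 and Col6a6 were well above background on 8, 11 and 9 of 16 arrays, and 38 members were above it on all 16.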

How the data were processed

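Total RNA of 400 ng per sample was labelled with Cy3 and hybridised to 16 Agilent one-colour arrays of design 014868. The deposited values are scanner intensity per spot, which per the file headers Agilent Feature Extraction 12.0.0.7 background-subtracted, with no scaling across arrays. Version 9.5 stands in the submitters' processing notes. Spot flags are those deposited by the authors and were used to filter. The deposited series value table equals the scanner intensity (largest difference 0). No column of values was left unused.

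From the 45018 spots, 1639 controls were removed, log2 intensity minus the array's 75th percentile was taken, outlier spots were set to missing (at most 1 array per group allowed), spots of 1 probe were averaged, and a probe was kept if 4 or more of 16 arrays had it well above background. Symbols came from RefSeq accessions in RefSeq's GRCm38.p6 gene annotation (28223 of 29245 RefSeq probes matched), and the brightest kept probe stood for a gene. No collagen probe was saturated. limma 3.58.1 (R 4.3.3, data.table version 1.17.8) fitted 4 group means over 25045 genes and targets. Its two-sided moderated p-values were adjusted by Benjamini-Hochberg within each of 5 comparisons and called below 0.05. The code was tested on simulated data. Tables and figures used Python 3.11.15, pandas 2.3.3 and matplotlib 3.10.9.

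Array values were given for members called in any comparison and for Col1a1, Col1a2, Col3a1, Col4a1 and Col4a2. Up to 4 called genes a list and comparison were named from the pathway lists, with Serpinh1 and Lox always. Col5a1, Col2a1, Col24a1, Col4a3, Col4a6, Col6a1 and Col12a1 were named after their values were seen. The members and lists were chosen with earlier results of these data known. The alternatives were quantile and median scaling, normexp (offset 50) on median spot and local background signals (mean spot signals were not used here), other filters and probe choices, slide or replicate number as a block, a variance trend, array weights, only the arrays compared, and leaving out arrays. Dropping probes with a missing value was added after seeing the data. Correlations of deviations between same-numbered arrays ran from -0.37 to 0.38 over 24 pairs of arrays, with 8 over 0.1. Differently numbered arrays were not compared, so these values cannot settle whether the replicate numbers pair the samples. Array number limits the precision.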

Additional observations from a re-analysis of the deposited data

Results flagged for a closer look

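Col18a1 on SalD array 1, at a log2 level of 4.02, lay apart from the other 3 SalD arrays, which ran from 3.79 to 3.83. Its gap to the nearest array was 0.834 of the group's range, just above Dixon's critical value for 4 samples. It was the only one of 75 gene and group sets tested for such a gap, where chance gives about 1 in 20.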

How the results depend on the processing

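With all arrays, 6, 4 and 9 collagens were called in SalD against SalV, GenD against GenV and GenD against SalD, and 0 in GenV against SalV and in the interaction, which stayed at 0 in every alternative run (the interaction could not be fitted on only the arrays compared). Leaving out 1 array at a time gave 3 to 8, 1 to 4 and 1 to 10. SalD against SalV gave 2 without SalD replicates 2 and 3. GenD against GenV gave 2 with median scaling (2 higher, 0 lower), 2 with no filter on dim probes, 0 with slide as a fixed block, 14 with array weights, 1 without GenV replicates 3 and 4 and 0 with only the arrays compared. GenD against SalD gave 5 with median scaling, 4 with normexp, 5 with no filter, 15 with array weights, 1 without SalD replicates 2 and 3 and 5 with only the arrays compared. The cause was not tested. With the replicate number as a block the counts were 6, 3 and 8, with slide as a random block 6, 4 and 9, and with slide as a fixed block 5, 0 and 8. Signs turned for 6 genes. For Col1a1 in SalD against SalV the difference was 0.22 with median scaling, 0.11 with normexp and -0.18 to 0.16 with 1 array left out, above 0 without SalV replicate 2 (0.15), SalV replicate 4 (0.0056), SalD replicate 1 or SalD replicate 2 (0.13). For Col3a1 it was 0.024 with median scaling and for Col4a1 -0.33 when probes with a missing value were dropped. For Col4a2 it was -0.066 with quantile normalization, -0.082 with the mean of probes, -0.090 with slide as a fixed block, and -0.054 to 0.17 with 1 array left out, below 0 without SalV replicate 3, SalV replicate 4 or SalD replicate 1 (-0.0020). In GenD against GenV, Col4a2 ran from -0.0042 without GenV replicate 4 to 0.29. With normexp, Mmp8 gave -0.75 in SalD against SalV and Itga2 gave 0.86 in GenD against GenV. Among all genes called, the share higher in SalD than SalV was 37.4%, and 65.2% with median scaling, and in GenD against SalD 71.7% and 55.7%. Signal near background limits Col6a6, Col19a1 and Col28a1.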
